A study of Mus musculus with 12 samples.

Results

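Lrp8, Mxi1, Btbd11, Dmwd, Fgd3 and Acsl3 are 6 genes whose mRNA was higher in mouse macrophages given 3′-sialyllactose (3′SL), both in resting cells and in cells given lipopolysaccharide (LPS). They were chosen by measured values: they come from the genes called higher in both 3′SL comparisons of these same libraries, outside those of endoplasmic reticulum (ER) folding and sterol synthesis. Slc40a1 passed the same calls and lies outside those groups too, but was not in the list of members given for the choice, for which no reason is stated. The count files hold 43626 genes, of which 14308 had enough reads to be tested, and 17 of the 14308 (0.119%) were called higher in both comparisons. All 6 genes passed the filter on low counts. The 3′SL changes described here are therefore the values that selected the genes and carry no test. The response to LPS, averaged over cells without and with 3′SL, was not a comparison used for the choice and was tested. It rests on the same libraries, so a library far from its group can enter both, as for Lrp8 below. The members were also chosen with earlier results of these data known.

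The cells were mouse bone marrow-derived macrophages (BMDMs), grown from marrow precursors in culture. The first group received PBS only, the second 3′SL at 100 μg/mL, the third LPS at 10 ng/mL, and the fourth LPS and 3′SL together at those doses, with RNA taken at 6 hours. Doses and time come from the study's methods; the sample labels instead describe injections into mice. Each group holds 3 libraries, and the labels give no strain, sex, age or donor for the macrophages and do not say whether the 3 libraries came from separate mice or cultures, so p-values measure only the spread between these libraries.

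3′SL is a sugar of milk in which a sialic acid is joined to lactose. LPS, which coats Gram-negative bacteria, is sensed by Toll-like receptor 4 and switches macrophages to an inflammatory programme. The 6 genes do not form 1 pathway. Lrp8 encodes apolipoprotein E receptor 2, a lipoprotein receptor that binds apolipoprotein E, reelin and selenoprotein P. Acsl3 encodes an acyl-CoA synthetase of the ER and of lipid droplets, which activates long-chain fatty acids. Mxi1 encodes a partner of MAX that competes with MYC and represses genes MYC activates. Btbd11 encodes a protein with ankyrin repeats and a BTB domain, Fgd3 an exchange factor that loads GTP onto the small GTPase CDC42, and Dmwd a WD-repeat protein found with the deubiquitinases USP12 and USP46.

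The libraries held 20411741 to 26851890 reads assigned to genes. All 10 macrophage markers were expressed in every library, among them Lyz2 at 12155 to 15730 CPM (counts scaled to library size) and Csf1r at 1668 to 3562 CPM. Clustering of the residuals after group means were removed gave 3 library sets, and each of them held 4 libraries, 1 from PBS, 1 from 3′SL, 1 from LPS and 1 from LPS + 3′SL. The residuals correlated at 0.60 on average within a set and at -0.35 between sets, and the sets follow the running numbers in the sample titles (1 to 4, 5 to 8 and 9 to 12), although the labels do not say what those numbers mark. The sets differed in mRNA of markers of other cell types. The summed level of 10 stromal markers was 668 to 778 CPM in set 1, 29.8 to 50.7 in set 2 and 73.6 to 122 in set 3. That of 9 neutrophil markers was 140 to 222, 265 to 449 and 302 to 1017 CPM. The neutrophil sum also differed by treatment, at 140 to 548 CPM with PBS and 222 to 1017 CPM with LPS, as did that of 5 dendritic cell markers, at 0.912 to 1.48 and 5.57 to 14.4 CPM. Of these 5 markers Xcr1 reached 14.0 CPM in a library, and no other went above 1.77 CPM. T cell markers other than Cd4 and the erythroid markers were at or near 0, and the B cell and mast cell lists summed to at most 3.90 CPM. The sum of 4 endothelial markers was 7.38 to 13.4 CPM with PBS and 7.40 to 14.6 with 3′SL, against 18.5 to 28.6 in LPS cells and 17.8 to 29.3 when both were given, without overlap between libraries without and with LPS. Whether this mRNA came from other cells or from the macrophages was not tested. The part of any such cells in the levels of the 6 genes was not tested either. Because the sets differed, each 3′SL ratio below is also given within a set. Such a ratio does not remove marker differences between treatments inside a set. For example, the neutrophil sum of set 3 was 302 CPM with 3′SL against 548 CPM with PBS. With 3′SL this sum rose slightly elsewhere, to 152 from 140 CPM (set 1) and to 285 from 265 CPM (set 2).

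The selection itself rested on the fit that takes the library set into account. In that fit 283 genes (1.98%) were called higher with 3′SL than with PBS and 98 (0.685%) rose when 3′SL was added to LPS, a call being an adjusted p below 0.05 and a change of at least 1.5-fold. The genes nearest the threshold, ranked by the larger of their 2 adjusted p, were Fgd3 (0.0302), Sdf2l1 (0.0307) and Lrp8 (0.0475) just inside, and Emp2 (0.0540), Herpud1 (0.0545) and C130050O18Rik (0.0635) just outside. In this fit Lrp8 thus had the largest folds of the 17 genes and, by the larger of its 2 adjusted p, the place nearest the threshold. Apart from the 6 genes, the 17 comprised 10 genes of ER folding, secretion and their control (Creb3l2, Manf, Pdia4, Hspa5, Creld2, Sec24d, Hyou1, Dnajc3, Dnajb9 and Sdf2l1) and Slc40a1, which encodes the iron exporter ferroportin. DESeq2 without the set called 5 genes in both comparisons, Lrp8 and Mxi1 among them, and DESeq2 with the set called 24, all 6 genes among them. edgeR without the set called none of the 14308 genes in either comparison, although 1439 and 995 genes had an unadjusted p below 0.05 and DESeq2 without the set called 88 and 113. With set 1 or set 2 left out, the fit with the set called 0 genes in both comparisons, and with set 3 left out it called 23, all 6 among them.

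**Figure D1:**
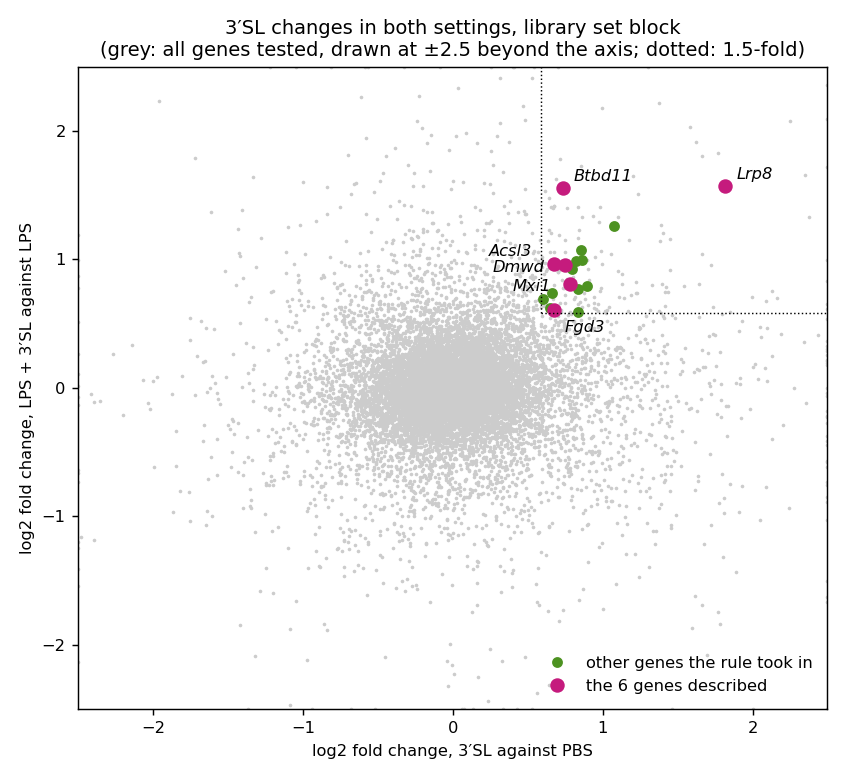
Log2 fold change with 3′SL in resting cells (horizontal) and in LPS-treated cells (vertical) from the fit with library set, with each tested gene as a grey point, the 6 genes in magenta and the other 11 genes of the selection in green. Of the 17 selected genes Lrp8 lies farthest out on both axes (1.82 and 1.57), Btbd11 is far higher on the vertical axis (1.55) than on the horizontal (0.73), and the other 4 genes lie between 0.60 and 0.97 on both.

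Lrp8 had the largest 3′SL change of the 6 genes in resting cells and the largest averaged LPS effect. Its level was 20.8, 19.0 and 27.4 CPM with PBS and 52.3, 44.1 and 177 CPM with 3′SL, in sets 1, 2 and 3. With LPS it was 4.35, 4.94 and 3.68 CPM, and with LPS + 3′SL 10.8, 11.0 and 19.9 CPM. Every 3′SL library lay above every PBS library and every LPS + 3′SL library above every LPS library, and the library of set 3 with 3′SL alone stood far above all others. Within sets the 3′SL ratio ran from 2.32 to 6.45-fold in resting cells and from 2.23 to 5.40-fold under LPS, with the highest ratio in set 3 both times. Without the third 3′SL library the fitted log2 change in resting cells was 1.07 in place of 2.02 ± 0.48 (SE). Under LPS the fitted change was 1.68 ± 0.50, and that of Btbd11 1.58 ± 0.61. Without set 3 they were 1.24 and 1.53. LPS lowered Lrp8 5.82-fold on average (log2 change -2.54, 95% interval -3.31 to -1.77, edgeR adjusted p = 0.000101), a value that 1.75% of tested genes matched or went below. Its lead over Acsl3 in the averaged effect rests on set 3, since without the third 3′SL library Lrp8 was at -2.08 and Acsl3 at -2.26, and without set 3 at -2.10 and -2.16. For LPS against PBS alone both stood at -2.37. At its lowest Lrp8 rested on 60 reads in a library, and at its highest on 4446.

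The 250 bases before the most upstream Lrp8 start in RefSeq (GRCm38.p6, chr4:107802635-107802884, plus strand) are shown because Lrp8 had the largest 3′SL change in resting cells. None of the 7 motifs named below occurs in it, so no letter is in capitals. The window lies inside the gene as annotated in GENCODE M21, which starts upstream of it at base 107802261.
Lrp8: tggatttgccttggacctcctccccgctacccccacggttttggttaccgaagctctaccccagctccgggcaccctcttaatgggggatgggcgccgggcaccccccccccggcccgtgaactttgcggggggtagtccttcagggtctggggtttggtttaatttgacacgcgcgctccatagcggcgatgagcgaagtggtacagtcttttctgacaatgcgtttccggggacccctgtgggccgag

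Acsl3 fell with LPS in every set, and its LPS effect had the narrowest interval of the 4 genes called lower. Its level was 37.2, 38.0 and 29.8 CPM with PBS and 58.7, 58.1 and 50.1 CPM with 3′SL. LPS alone gave 9.08, 5.42 and 5.71 CPM, and LPS + 3′SL gave 14.9, 14.3 and 10.2 CPM. None of the 4 groups overlapped, and Acsl3 was the only 1 of the 6 genes whose 6 libraries with LPS all lay below its 6 libraries without LPS, a separation that 17.0% of tested genes showed. The 3′SL ratio within sets was 1.53 to 1.68-fold in resting cells and 1.65 to 2.64-fold under LPS. The LPS effect was -2.23 on the log2 scale (95% interval -2.57 to -1.89, edgeR adjusted p = 6.09e-07), a 4.68-fold fall. In set 3 Acsl3 was lower than in set 1 in all 4 groups, whereas the other 5 genes were higher in set 3 than in set 1 in every group except Lrp8 with LPS alone. Of its exon bases 5.6% are also annotated to Utp14b on the same strand, and 3.59% of its 50-base stretches occur in Utp14b transcripts, so a small share of reads could have been set aside as ambiguous.

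The Acsl3 window (chr1:78657575-78657824, plus strand) is shown as the most GC-rich first window of the 6, with 75.6% G or C against a median of 52.4% over all windows. Capitals mark its CCAAT box and its 5 GC boxes, the last of which follows directly on the CCAAT box.
Acsl3: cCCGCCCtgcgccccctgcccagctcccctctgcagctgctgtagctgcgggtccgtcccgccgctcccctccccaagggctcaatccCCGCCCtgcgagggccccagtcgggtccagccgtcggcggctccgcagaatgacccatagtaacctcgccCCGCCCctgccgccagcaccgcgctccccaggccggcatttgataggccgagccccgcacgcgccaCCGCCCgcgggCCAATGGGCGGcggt

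Mxi1 changed by nearly the same ratio in all sets and in both settings. It was at 24.0, 25.1 and 29.8 CPM with PBS and at 42.0, 39.3 and 55.5 CPM with 3′SL. With LPS it was at 18.4, 15.3 and 23.0 CPM, and with LPS + 3′SL at 32.6, 27.6 and 38.5 CPM. The libraries with and without 3′SL did not overlap in either setting. Within sets the 3′SL ratio was 1.56 to 1.86-fold in resting cells and 1.68 to 1.81-fold under LPS, and the fitted log2 changes were 0.79 ± 0.19 and 0.80 ± 0.19. LPS lowered Mxi1 1.39-fold (log2 change -0.48, 95% interval -0.77 to -0.18, edgeR adjusted p = 0.0103), which is below the 1.5-fold minimum for a call. Without set 1 or set 2 the edgeR adjusted p was 0.0725 or 0.0742, and the fit with library set gave 4.2e-05. RefSeq lists 3 start windows for Mxi1, and counts per gene do not tell which start was used. Its antisense neighbour Gm10197, which shares 194 exon bases with it, had 0 reads in all libraries.

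Btbd11 was the least abundant of the 6 and the one whose 3′SL ratio differed most between resting and LPS-treated cells. It was at 3.04, 3.23 and 9.61 CPM with PBS and at 6.10, 4.93 and 14.8 CPM with 3′SL, so these groups overlapped. With LPS it was at 2.15, 1.89 and 4.42 CPM and with LPS + 3′SL at 6.55, 5.01 and 13.6 CPM, which did not overlap. Set 3 was highest in all 4 groups. Within sets the 3′SL ratio was 1.53 to 2.01-fold in resting cells and 2.65 to 3.07-fold under LPS, so that the second log2 ratio exceeded the first by 0.60, 0.80 and 0.996 in sets 1, 2 and 3. That excess comes from the comparisons that selected the gene and was not tested. The averaged LPS effect was -0.48 on the log2 scale with an interval of -1.41 to 0.45 (edgeR adjusted p = 0.367), which holds a fall past the 1.5-fold minimum as well as a rise. The value moved to -0.10 without the third PBS library, -0.17 without the third 3′SL library, -0.71 without the third LPS library and -0.74 without the third LPS + 3′SL library. The fit with library set gave -0.41 ± 0.12 (edgeR adjusted p = 0.00773), a fall below the 1.5-fold minimum. Leaving out set 1, 2 or 3 from that fit gave -0.51, -0.43 and -0.26 (edgeR adjusted p = 0.0164, 0.0511 and 0.168). For LPS against PBS alone the fit with library set gave -0.82 ± 0.17 and the fit without it -0.92 ± 0.61, the latter running from -0.16 without the third PBS library to -1.39 without the third LPS library. The LPS libraries of this comparison also entered the selection, so these values are a description. Between LPS + 3′SL and 3′SL the difference was -0.041, with an interval of -1.34 to 1.25 without the set. These values rest on 39 to 372 reads a library.

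Dmwd lies beside Dmpk, the gene of the myotonic dystrophy kinase, on chromosome 7. Its level was 28.9, 19.9 and 46.0 CPM with PBS and 48.4, 42.3 and 62.0 CPM with 3′SL, with the lowest 3′SL library below the highest PBS library. With LPS it was 14.7, 13.3 and 23.3 CPM, and with LPS + 3′SL 26.7, 26.3 and 47.2 CPM, without overlap. The 3′SL ratio within sets was 1.35 to 2.12-fold in resting cells, lowest in set 3, and 1.81 to 2.03-fold under LPS. LPS lowered Dmwd 1.68-fold on average (log2 change -0.75, 95% interval -1.28 to -0.22, edgeR adjusted p = 0.0208). The call was lost without the second LPS library (adjusted p = 0.0527), the second LPS + 3′SL library (0.0513), the third PBS library (0.0521), set 1 (0.152) or set 2 (0.0604), and the fit with library set gave 1.1e-05. Dmpk itself fell by 1.75 on the log2 scale with LPS and was 0.48 ± 0.20 and 0.63 ± 0.20 higher on the log2 scale with 3′SL in the 2 settings, without passing the threshold in either fit.

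Fgd3 had the highest mean level of the 6 genes per kilobase of exon over all libraries, and in LPS + 3′SL cells Dmwd stood beside it (12.7 ± 1.76 and 13.1 ± 4.69 CPM per kilobase, SD, n = 3). It was at 92.0, 82.2 and 151 CPM with PBS and at 132, 135 and 256 CPM with 3′SL, where the PBS library of set 3 lay above the 3′SL libraries of sets 1 and 2. LPS alone gave 47.4, 43.5 and 60.1 CPM and LPS + 3′SL 69.7, 70.3 and 88.3 CPM, which did not overlap. The 3′SL ratio within sets was 1.44 to 1.70-fold in resting cells and 1.47 to 1.62-fold under LPS, the smallest of the 6 genes in LPS-treated cells. LPS lowered Fgd3 2.22-fold (log2 change -1.15, 95% interval -1.61 to -0.70, edgeR adjusted p = 0.000665).

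The Fgd3 window (chr13:49309209-49309458, minus strand) is shown because it is the only first window of the 6 with the core of a PU.1 site, PU.1 being a transcription factor of myeloid cells. Capitals mark that core 34 to 41 bases before the start and a CCAAT box 59 to 63 bases before it. The window lies inside the gene as annotated in GENCODE M21, which on this strand starts upstream of it at base 49320311.
Fgd3: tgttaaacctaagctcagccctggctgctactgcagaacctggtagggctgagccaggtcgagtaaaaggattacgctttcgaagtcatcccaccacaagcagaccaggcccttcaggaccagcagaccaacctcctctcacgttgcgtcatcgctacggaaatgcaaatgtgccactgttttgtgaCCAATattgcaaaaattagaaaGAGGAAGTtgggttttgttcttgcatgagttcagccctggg

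All 6 genes matched the RefSeq windows of 250 bases before annotated starts (GRCm38.p6), and both strands of each gene's most upstream window were searched for 7 motifs. CCAAT was present in 4 of the 6 windows against 33.8% of 32851 windows, and the GC box GGGCGG in 4 of 6 against 32.7%. The 32851 windows cover 27025 genes, with further starts of a gene and without regard to expression. They are thus unlike the 6 first windows, and no enrichment is read from the shares. The PU.1 core GAGGAAGT was in 1 of 6 against 2.44%. No window held the E-box CACGTG that MYC-MAX proteins bind (6.02% of all windows), the sterol regulatory core TCACNCCAC (1.05%), the ATF6 and XBP1 core TGACGTG (1.65%) or the TATA box TATAAA (12.4%). These matches describe letters in a short window and say nothing of binding. For none of the genes do the counts tell which start was used.

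**Figure D2:**
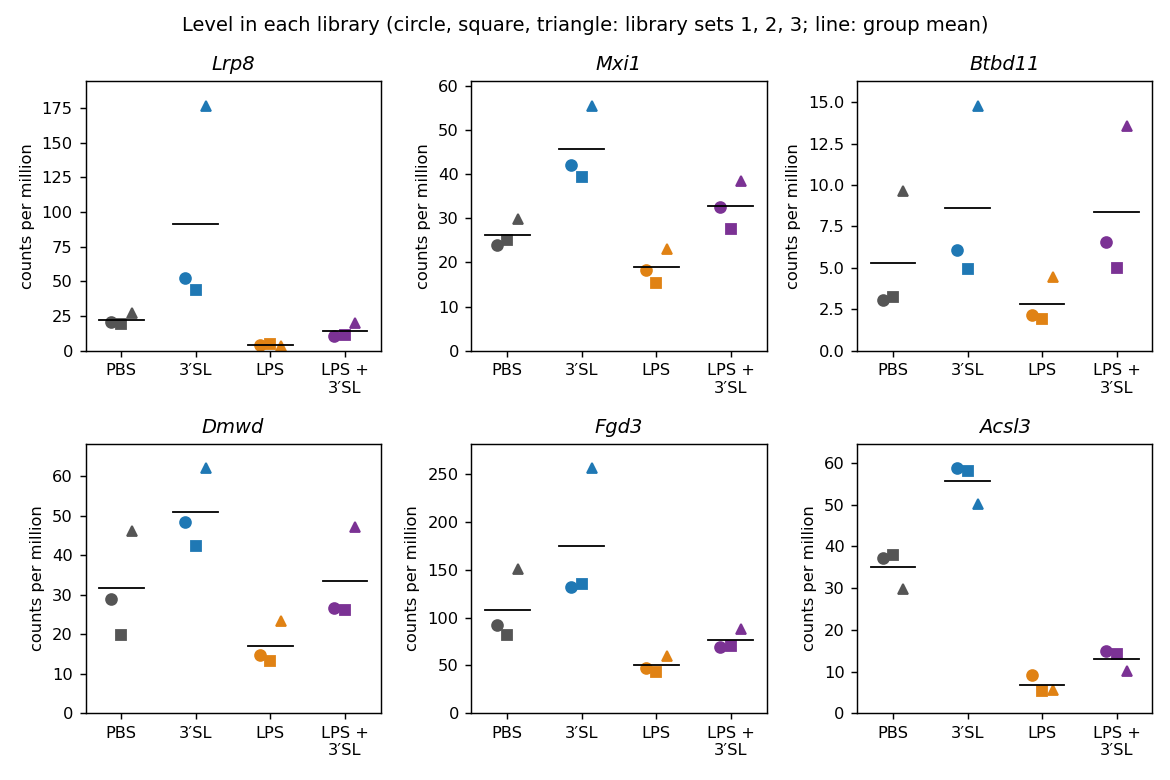
Level of each gene in CPM (vertical, from 0) in the 12 libraries by group, with a line at the group mean and a symbol for each library set (circle, square and triangle for sets 1, 2 and 3). With LPS + 3′SL every gene lies above its LPS libraries, and the set 3 triangle of Lrp8 with 3′SL stands at 177 CPM.

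Across the 6 genes, the libraries did not overlap between 3′SL and PBS for 3 genes (Lrp8, Mxi1 and Acsl3) and between LPS + 3′SL and LPS for all 6. Of all tested genes, 9.02% and 6.24% had every 3′SL library above its control libraries in the 2 settings. The selection used these comparisons, so nothing is read from the counts. Within sets all 36 ratios of the 6 genes were above 1, the lowest being 1.35-fold for Dmwd in set 3. Mean levels over all libraries ordered the genes as Fgd3 (17.0 CPM per kilobase), Dmwd (13.0), Acsl3 (6.34), Mxi1 (4.53), Lrp8 (3.13) and Btbd11 (0.625). The order differed between groups: Mxi1 lay above Acsl3 with LPS (2.76 and 1.55 CPM per kilobase) and with LPS + 3′SL (4.82 and 3.02), and Lrp8 above Mxi1 with 3′SL (8.66 and 6.69). Fgd3 and Dmwd overlapped in PBS libraries (13.7 to 25.1 and 7.80 to 18.0 CPM per kilobase), and Btbd11 lay below the other 5 in PBS. In LPS libraries Lrp8 fell to 0.350 to 0.470 CPM per kilobase and overlapped Btbd11 at 0.188 to 0.441.

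**Figure D3:**
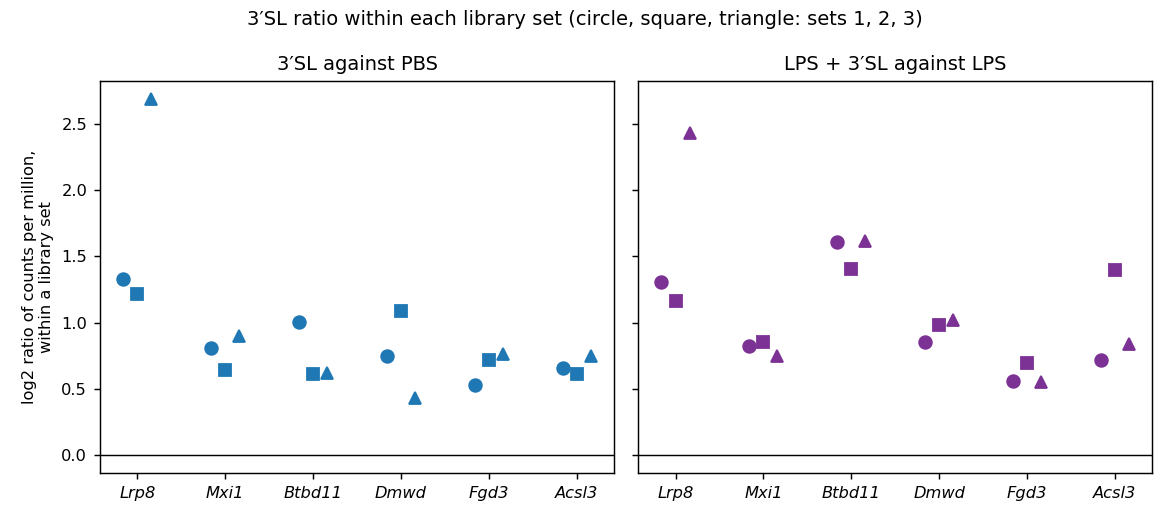
Log2 ratio of CPM with and without 3′SL within each library set (circle, square and triangle for sets 1, 2 and 3), in resting cells on the left and LPS-treated cells on the right. All points lie above 0, Lrp8 in set 3 is highest on both sides (2.69 and 2.43), and Btbd11 shifts from 0.61 to 1.004 on the left to 1.41 to 1.62 on the right.

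The LPS comparison gives the response of the 6 genes to the inflammatory stimulus. By the averaged LPS effect, Lrp8, Acsl3, Fgd3 and Dmwd were called lower with LPS, Mxi1 was lower by less than 1.5-fold, and Btbd11 did not pass the test. Of all tested genes 21.5% were called lower and 39.7% were called in either direction. The median of all tested genes was -0.069 on the log2 scale and that of the 6 genes was -0.95. In the fit with library set the same 4 genes were called lower, against 23.9% of all genes, and Btbd11, like Mxi1, passed the adjusted p with a fall of less than 1.5-fold. Btbd11 no longer passed in that fit with set 2 or set 3 left out. For LPS against PBS alone, Lrp8, Acsl3 and Fgd3 were called lower (20.2% of all genes), and the same 3 were called between LPS + 3′SL and 3′SL (14.8%). The fit with library set also called Dmwd lower in both and Btbd11 in the first (24.0% and 19.4% of all genes). These last comparisons share libraries with the selection, and high 3′SL libraries or low LPS libraries can enter both. For Fgd3, leaving out set 1 or set 2 raised the adjusted p of these comparisons to between 0.0557 and 0.0646.

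**Figure D4:**
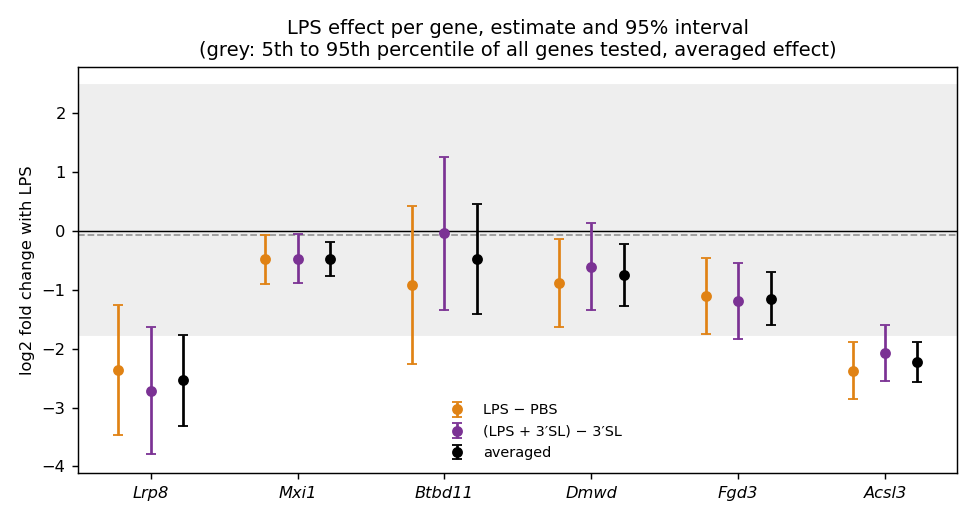
Log2 fold change with LPS for each gene (vertical) with its 95% interval, for LPS against PBS (orange), LPS + 3′SL against 3′SL (purple) and their average (black), beside the range from the 5th to the 95th percentile of all tested genes (-1.77 to 2.47, grey). Lrp8 and Acsl3 lie below that range, and the interval of Btbd11 spans 0 in all 3 estimates.

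LPS + 3′SL cells can also be set beside PBS cells, as a description, since this difference contains a comparison that selected the genes. Acsl3 remained far below its PBS level, at a mean within-set ratio of 0.372, and lower in all 3 sets. Lrp8 stood at 0.602 and Fgd3 at 0.724 of the PBS level, also lower in all 3 sets. Mxi1 and Btbd11 were above their PBS level in all 3 sets, with mean ratios of 1.24 and 1.68. Dmwd was above it in 2 of 3 sets, with a mean ratio of 1.08. In bulk RNA a smaller share of cells with a transcript and less transcript in each cell cannot be told apart, here and in the values above.

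The levels of the 6 genes followed each other over the 12 libraries with Pearson correlations of 0.34 (Btbd11 and Acsl3) to 0.96 (Lrp8 and Fgd3), and a median of 0.86 over 15 pairs. After group means were removed, the pairs without Acsl3 ran from 0.53 to 0.94 and those with Acsl3 from -0.64 to -0.43. These libraries share treatments and sets, and the correlations carry no test. The deviations by set were largest for Btbd11, whose mean log2 residual was 0.89 in set 3 and -0.54 in set 2, whereas that of Acsl3 was 0.21 in set 1 and -0.23 in set 3.

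The genes most like each of the 6 were taken as the 3 with the highest Pearson correlation of log2 CPM over the 12 libraries. For Lrp8 they were Preb (0.98), an exchange factor of ER export, the ER protein Sdf2l1 (0.98) and Insig1 (0.98), which retains the sterol sensor SCAP in the ER. Those 3 changed less than Lrp8, by 0.36 to 0.61 on the log2 scale with 3′SL in resting cells. For Mxi1 they were Creb3l2 (0.98), an ER-anchored transcription factor, the ER foldase Pdia4 (0.96) and Derl1 (0.96), which acts in the disposal of misfolded ER proteins. For Btbd11 they were Alg12 (0.94), a mannosyltransferase of the ER, Tm2d2 (0.94) and Gtf2ird2 (0.94), with LPS effects of -0.12, -0.030 and -0.094 that did not pass the test. For Dmwd they were Trabd (0.95), Phf1 (0.95) and Syn1 (0.95). For Fgd3 they were the tetraspanin gene Cd151 (0.98), the Golgi N-glycan enzyme gene Mgat2 (0.98) and Xpot (0.97), which exports tRNA from the nucleus. For Acsl3 they were Epm2aip1 (0.99), the palmitoyltransferase gene Zdhhc9 (0.99) and Syt11 (0.98), with LPS effects of -1.08, -0.76 and -1.22, each called lower. The 12 libraries include the comparisons that selected the 6 genes, and Sdf2l1, Creb3l2 and Pdia4 are themselves among the 17 selected. Which genes come out as most alike is therefore partly set by the choice and is a description.

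Relatives and partners of the 6 genes were listed by family: 123 genes, of which 100 were tested. With LPS, 25 of the 100 were called higher and 27 lower, against 39.7% of all genes in either direction, and none of the 52 changed sign with another scaling of the libraries (DESeq2 size factors, total counts or DESeq2). With 3′SL, edgeR without the set called 0 of the 100 in either setting (11 in each had an unadjusted p below 0.05), and DESeq2 called 1 in each. The fit with library set called 3 higher in resting cells (2.84% of all genes in either direction) and 2 higher and 1 lower under LPS (1.45%). No listed relative was called in both settings, though some rose within all 3 sets in both, as given for Mxd4 and Tiam1 below.

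Among lipoprotein receptors with their ligands and regulators, 4 of 17 tested genes rose and 7 fell with LPS. Lrp4 rose most (log2 change 2.73 ± 0.17), Lrp6, a co-receptor of Wnt proteins, fell most (-1.56 ± 0.11), and Apoe, the most abundant at 5914 CPM and a ligand of Lrp8, was at 0.086 ± 0.35.

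In the MYC-MAX network 4 of 12 genes rose and 5 fell with LPS. Mxd1, which like Mxi1 encodes a repressive partner of MAX, rose from a mean of 13.6 ± 3.13 CPM (SD, n = 3) with PBS to 451 ± 227 CPM with LPS (log2 change 5.17 ± 0.32, averaged effect). Mycl, the largest rise of the list, had 1 read in all PBS libraries together and 222 in the LPS libraries. Mxd4, another partner of this kind, fell by 2.09 on the log2 scale and was called higher when 3′SL was added to LPS in the fit with library set (0.63, adjusted p = 0.0384). Its log2 ratios were 0.79, 0.89 and 0.12 in sets 1, 2 and 3, so the rise in set 3 was far smaller than the others. In resting cells the log2 ratios of Mxd4 with 3′SL were 0.46, 0.54 and 0.27, without a call.

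Among 18 tested genes of the BTB domain and cullin 3 list, 4 rose and 6 fell with LPS. Abtb2, an ankyrin and BTB gene built like Btbd11, rose by 4.04 ± 0.46, Btbd6 fell by 1.63, and Ankfy1 was the most abundant at 373 CPM and rose by 0.83 ± 0.11. Abtb2 was called higher with 3′SL in resting cells in the fit with library set (1.45, adjusted p = 0.0130), with log2 ratios of 0.92, 1.29 and 2.04 in sets 1, 2 and 3, and under LPS its log2 ratios were -0.19, -0.40 and 0.16. Btbd11 had the reverse order, with its larger ratios under LPS. Of the 7 tested WD-repeat partners of USP12 and USP46 and genes beside Dmwd, 1 rose and 2 fell with LPS. Usp12 was the most abundant and rose by 1.96 ± 0.10, and Dmpk fell most, by 1.75.

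Of 30 tested exchange factors and effectors of CDC42, 8 rose and 3 fell with LPS, Fgd3 not being counted. Cdc42ep2 rose by 3.90 ± 0.41, Cdc42ep3 fell by 2.11, and Iqgap1, a scaffold that binds active CDC42, was the most abundant at 1804 CPM with a value of 0.26 ± 0.12 that did not pass. Tiam1, an exchange factor of RAC, was called higher with 3′SL in resting cells in the fit with library set (0.75, adjusted p = 0.0261), with log2 ratios of 0.64, 0.78 and 0.84 in sets 1, 2 and 3. Under LPS its log2 ratios with 3′SL were 0.38, 0.27 and 0.46, without a call.

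Acsl3 and its relative Acsl1 stood in contrast among the 16 tested acyl-CoA synthetases and lipid droplet genes, of which 4 rose and 4 fell with LPS. The mean of Acsl1 (SD, n = 3) was 49.5 ± 3.28 CPM in PBS cells and 46.9 ± 3.17 CPM in 3′SL cells, against 498 ± 50.6 CPM under LPS alone and 278 ± 41.8 CPM under LPS + 3′SL. It rose by 2.95 ± 0.096 with LPS (edgeR adjusted p = 1.15e-08), where Acsl3 fell. Acsl5 and Acsl4 were also called higher with LPS (1.15 ± 0.080 and 0.70 ± 0.087), so of the tested ACSL genes only Acsl3 fell. In the fit with library set, Acsl5 was lower by 0.38 when 3′SL was added to LPS (edgeR adjusted p = 0.0413). Acsl4 was higher by 0.57 with 3′SL in resting cells (edgeR adjusted p = 0.00897). Both changes were below the 1.5-fold minimum. Between LPS + 3′SL and LPS Acsl1 was lower by 0.88, 0.90 and 0.77 on the log2 scale in sets 1, 2 and 3, and the fit with library set called it lower (adjusted p = 0.0022), whereas the fit without it gave 0.104. Acsbg1 fell most (by 2.17, from a mean of 1.83 CPM with PBS), and Plin2, the main coat protein gene of lipid droplets in macrophages, was the most abundant at 1064 CPM with an LPS value of -0.054 ± 0.26 that did not pass.

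**Figure D5:**
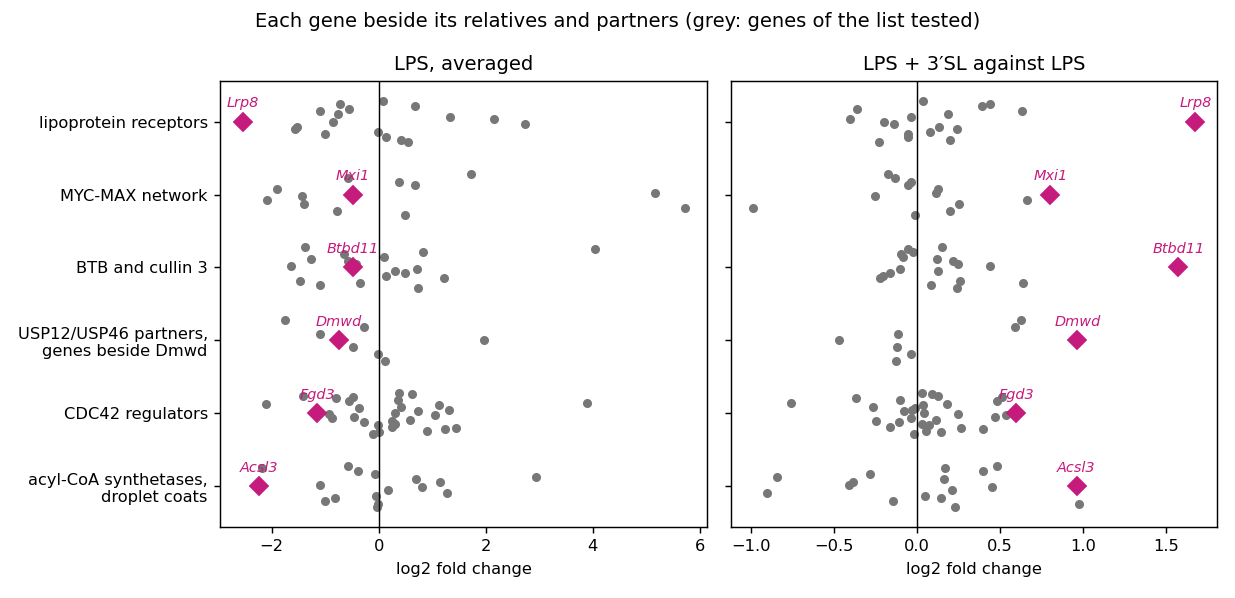
Log2 fold change of each gene (magenta diamond) beside the tested relatives and partners of its list (grey), for the averaged LPS effect on the left and LPS + 3′SL against LPS on the right, without library set. On the left Lrp8 lies below all relatives of its list, while Mxd1, Mycl, Abtb2 and Cdc42ep2 lie near 4 or above. On the right the 6 genes lie at the right edge of their lists because they were selected there, with Slc27a3 (0.98) beside Acsl3 (0.96).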

How the data were processed

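RNA from 12 libraries of mouse BMDMs (4 groups of 3) was prepared by the study as stranded libraries from polyA-enriched mRNA. The deposited values are raw read counts per gene, 1 file a library. Per the submitters' processing notes, the authors used FastQC, Trimmomatic, STAR, HTSeq and DESeq2; their versions, the genome build and the strand setting of the counting are not given in the sources used here. Reads aligned to several places were 24.8 to 28.5% of a library's count total and reads on no feature 4.41 to 5.89%, and both were left out of library sizes. Of 43626 gene identifiers, 42548 were matched without version to GENCODE M21 names (GRCm38), which also gave exon lengths. Of 181 listed family and marker genes 179 were found.

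Counts were fitted with edgeR 4.0.16 (R 4.3.3; filterByExpr, TMM, quasi-likelihood F-test, Benjamini-Hochberg adjustment over 14308 genes) over all 12 libraries without covariates. Calls needed an adjusted p below 0.05 and a change of at least 1.5-fold. CPM values use TMM library sizes, and correlations use log2 CPM with a prior count of 2. Library sets were found by clustering residuals and entered a second fit as a block; with the block the common coefficient of variation fell to 0.13 from 0.31. No libraries of a group agreed within sampling noise (lowest chi-square per gene 15.6). The edgeR fits with and without the block were also run on simulated counts with known LPS changes. No 3′SL change was simulated, and no result here rests on that run. Alternatives were DESeq2 1.42.0, other scalings and filters, only the groups compared, and leaving out libraries or sets; leaving out a set together with the block, and DESeq2 with the block, were added after seeing the data. The members and the lists were chosen with earlier results of these data known. Named genes were the 6 members, the 3 genes nearest the selection threshold on each side, the 3 most correlated genes of each member, and of each list the most abundant gene, the largest called rise and fall with LPS and each gene called for 3′SL in the block fit, apart from some lipoprotein receptor list results that are not reported here; Slc27a3 and Dmpk with 3′SL were named after their values were seen. Acsl4 and Acsl5 were also named after their values were seen. Intervals cover the spread between these libraries only.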

Additional observations from a re-analysis of the deposited data

How the results depend on the processing

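The averaged LPS falls of Lrp8, Acsl3 and Fgd3 stayed called under all alternatives tried. Total-count scaling moved the median LPS effect of all genes to -0.63 (from -0.069), and under it Mxi1 (-1.05) and Btbd11 (-1.06) were also called. The Dmwd call was lost without set 1 (-0.68) or set 2 (-0.78), and without 1 library its value ran from -0.56 to -0.91. For Btbd11, LPS + 3′SL against 3′SL turned positive without set 3 (0.11 without and 0.10 with the block) and in DESeq2 with the block (0.030), and ran from -0.57 to 0.61 without 1 library; it passed no test.

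The 3′SL values, which carry no test, kept their direction throughout. Total-count scaling gave 0.59 for Acsl3 in resting cells, and 0.89 for Mxi1 and 0.69 for Fgd3 under LPS. Without 1 library the 3′SL values in resting cells ran from 1.07 to 2.35 for Lrp8, 0.59 to 0.89 for Mxi1, 0.017 to 1.46 for Btbd11, 0.44 to 1.06 for Dmwd, 0.26 to 1.002 for Fgd3 and 0.57 to 0.73 for Acsl3. Under LPS they ran from 0.67 to 0.97 for Mxi1, 1.05 to 2.05 for Btbd11, 0.63 to 1.25 for Dmwd and 0.48 to 0.75 for Fgd3. The low end in resting cells came without the third 3′SL library for Lrp8, Mxi1, Btbd11 and Fgd3.

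The count of 17 selected genes was 0 without the block, 5 in DESeq2, 21 at an unadjusted p without the block, and 0, 0 and 23 with the block but without sets 1, 2 and 3. Listed relatives called for 3′SL in resting cells numbered 0 without the block, 3 with it, 1 in DESeq2, 5 in DESeq2 with the block and 4 with the block but without set 3; under LPS they numbered 0, 3, 1, 4 and 7, and 5 without both the block and set 3. The causes were not tested. The titles number the libraries from 1 to 12 and do not say what a run of 4 shares, so the block rests on library sets found in the data, which equal those runs. Low counts limit Btbd11 most.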
